A study of Mus musculus with 8 samples.

Results

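The claudin family and the other genes of the tight junction were examined in kidney RNA from diabetic mice. They were taken from the deposited gene table by symbol, as every gene named Cldn followed by a number, zonula occludens scaffolds such as Tjp1 and Tjp3, occludin (Ocln), Marveld1 to Marveld3, the junctional adhesion molecules F11r, Jam2 and Jam3, cingulin (Cgn) and paracingulin (Cgnl1). This gave 35 genes of the 55401 in the table, 23 of them claudins. No difference between mice given recombinant FGF4 and mice given vehicle reached an unadjusted p under 0.05 in any of the 24 genes that were expressed well enough to be compared, when all 8 mice were weighted equally in limma. Other settings, such as array weights or a mouse left out, brought single genes such as Tjp1 below that limit. Mice of the same group also differed from one another, most widely in Cldn2 and in Cldn1, Cldn3, Cldn4 and Cldn7.

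Tight junctions seal the space between neighbouring epithelial cells and set which ions and how much water can pass between them. Claudins are the membrane proteins that form the strands and the pores of the junction, and each part of the nephron uses its own set of them. MARVEL proteins such as occludin and tricellulin travel in the same strands, junctional adhesion molecules lie beside them, and the zonula occludens and cingulin proteins tie the complex to the actin cytoskeleton. In the kidney the claudin set of a segment is known to decide whether it is leaky, as in the proximal tubule, or tight, as in the collecting duct.

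The study asked what rFGF4, a modified human fibroblast growth factor 4 with little mitogenic activity, does to the diabetic kidney, and sequenced polyadenylated RNA of 8 kidneys, 1 library per mouse. The 4 rFGF4-treated mice are numbered 1, 2, 3 and 5, and the 4 control mice 2, 3, 4 and 5. All 8 animals were diabetic, and no kidney of a healthy mouse was analysed here. The sample labels give the genotype of the control mice as a db/db model, in which a defective leptin receptor leads to obesity and diabetes, whereas the study's text on this experiment names mice made diabetic with streptozotocin (STZ), a toxin of the pancreatic beta cell, and given rFGF4 or the PBS vehicle. For the treated mice the labels give the treatment and no genotype, and the submitters' design text places both groups in db/db mice. Which model was used was not tested on the deposited values, and the control group is called vehicle-treated below. The labels give neither the age of the sequenced mice nor the dose and length of their treatment. Markers of the labelled tissue were abundant in every library: Slc34a1, the phosphate transporter of the proximal tubule, lay between 136 and 824 FPKM, and Umod, the uromodulin of the thick ascending limb, between 654 and 1213 FPKM.

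FPKM is a fragment count divided by the length of the transcript and by the depth of the library, so levels of different genes can be set side by side. The deposited table holds FPKM but no read counts, and the number of fragments behind a value is therefore unknown. Relative to vehicle mouse 2, the depth of the libraries lay between 0.908 and 1.13, estimated from the FPKM ratio that genes of low expression shared most often. Summed over all genes, FPKM came to between 389407 and 529835 per rFGF4 library and between 481321 and 552604 per vehicle library. Values were higher in rFGF4-treated mice for 67.1% of the 15150 genes tested, with a median log2 fold change of 0.09 over all of them. When the libraries were instead scaled to a common median ratio, that share was 50.5% and the median 0.00. The library of rFGF4 mouse 1 stood apart, being the highest of the 8 for 48.1% of all tested genes, and that of vehicle mouse 5 was the highest for 13.4%. For each tight junction gene described below in which rFGF4 mouse 1 was the highest, the estimate without that mouse is also given.

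The promoters of 5 claudins are shown first, because these are the genes whose levels differed most between mice and because Cldn3 and Cldn4 are close neighbours. Each sequence is the 250 bases before the RefSeq start site on GRCm38.p6, read 5′ to 3′ on the strand of the gene. For Cldn7 the window before the more upstream of its 2 listed start sites is given. Capitals mark matches, on either strand, to 5 short motifs that were searched. The TATA box was taken as TATAAA, and the GC box as GGGCGG, which is written CCGCCC where it lies on the other strand. The E-box bound by factors of the SNAI type was taken as CAGGTG, which is written CACCTG there. The grainyhead core was taken as AACNNGTT and the AP-1 site as TGANTCA. No 2 of the marked matches overlap.
Cldn3, chr5:134985964-134986213, plus strand: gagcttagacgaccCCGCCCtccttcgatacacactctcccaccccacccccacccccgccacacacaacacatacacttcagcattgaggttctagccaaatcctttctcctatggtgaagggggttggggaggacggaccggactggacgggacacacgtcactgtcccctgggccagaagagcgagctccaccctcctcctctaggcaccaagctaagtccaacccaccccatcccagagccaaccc
Cldn4, chr5:134946935-134947184, minus strand: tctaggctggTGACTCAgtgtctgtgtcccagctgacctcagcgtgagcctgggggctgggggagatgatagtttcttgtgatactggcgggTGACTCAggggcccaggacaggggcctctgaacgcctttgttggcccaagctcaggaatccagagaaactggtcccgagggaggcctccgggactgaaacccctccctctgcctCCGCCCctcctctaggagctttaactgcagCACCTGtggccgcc
Cldn1, chr16:26371840-26372089, minus strand: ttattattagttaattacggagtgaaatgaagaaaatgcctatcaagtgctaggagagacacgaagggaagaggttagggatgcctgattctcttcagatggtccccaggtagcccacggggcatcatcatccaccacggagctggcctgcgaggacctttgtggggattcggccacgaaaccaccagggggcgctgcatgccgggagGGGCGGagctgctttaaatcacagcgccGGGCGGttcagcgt
Cldn7, chr11:69964529-69964778, plus strand: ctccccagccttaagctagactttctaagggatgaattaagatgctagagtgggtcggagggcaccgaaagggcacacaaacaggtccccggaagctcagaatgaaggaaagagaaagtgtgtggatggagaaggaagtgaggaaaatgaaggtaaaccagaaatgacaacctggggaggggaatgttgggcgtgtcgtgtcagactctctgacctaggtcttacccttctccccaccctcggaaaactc
Cldn2, chrX:139800558-139800807, plus strand: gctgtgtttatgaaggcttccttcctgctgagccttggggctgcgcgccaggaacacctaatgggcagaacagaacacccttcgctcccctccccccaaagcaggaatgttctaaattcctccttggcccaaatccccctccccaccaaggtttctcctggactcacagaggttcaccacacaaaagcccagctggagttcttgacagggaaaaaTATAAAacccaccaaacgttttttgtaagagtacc

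The Cldn2 window held a TATA box 35 to 30 bases before the start site and none of the other letters. Cldn1 held 2 GC boxes within 42 bases of its start, Cldn3 held 1 GC box far upstream, and Cldn4 held a GC box, an E-box and 2 AP-1 sites. None of the 5 motifs was found in the Cldn7 window shown, while the window before its other start site held a GC box 6 to 1 bases before that start and 2 E-boxes. Among the 32851 RefSeq promoter windows of the same length, 12.4% held the TATA box, 32.7% the GC box, 17.2% the E-box, 3.64% the grainyhead core and 6.75% the AP-1 site. Promoters were listed for 19 of the 24 tested genes, 27 windows in all, of which 11.1%, 70.4%, 22.2%, 7.41% and 11.1% held the same motifs. The median GC content of the 27 windows was 60% and that of all windows 52.4%. A match is a string of letters and does not show that a factor binds there.

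Among the 35 genes, 24 had at least 0.5 FPKM in 4 or more libraries and were tested, and 12 of these were claudins. The other 11 were Cldn6, Cldn9, Cldn11, Cldn13, Cldn14, Cldn17, Cldn18, Cldn20, Cldn22, Cldn23 and Cldn24, and none of them reached 1 FPKM in any mouse. Cldn6, a claudin of embryonic epithelium, came nearest to the limit, with 0.264 to 0.899 FPKM, followed by Cldn23 with 0.0253 to 0.779 FPKM. Cldn14, which restricts calcium uptake through the junctions of the thick ascending limb, stayed at 0.114 FPKM or below, and Cldn18, a claudin of stomach and lung, was listed at 0 in all 8 mice. Cldn13 and Cldn22 were listed at 0 in 7 of 8 mice. The annotated exon of Cldn22 lies entirely within an exon of Wwc2 on the other strand, so reads at that place cannot be assigned to either gene without strand, and the sources used here do not say whether strand was used.

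**Figure D1:**
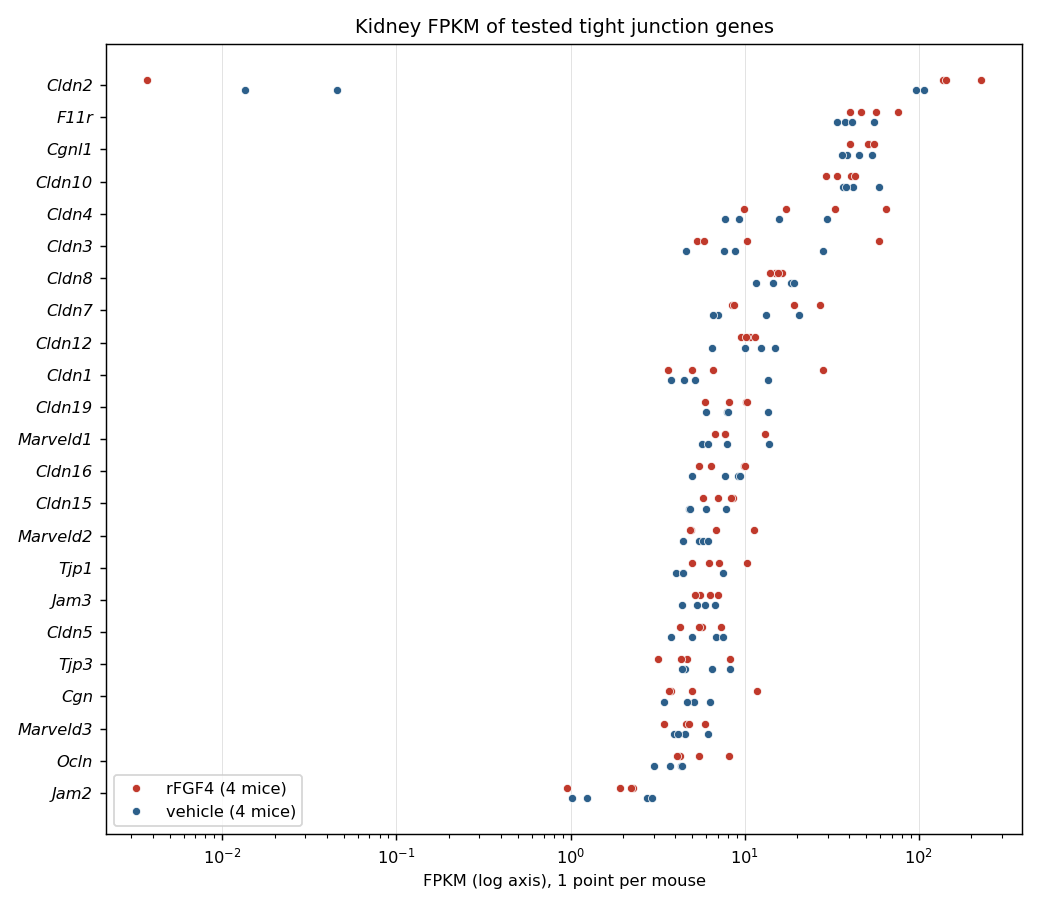
FPKM of 23 tested tight junction genes in each mouse (log axis), ordered by mean level, with rFGF4-treated mice in red and vehicle-treated mice in blue, 1 point per mouse. The groups overlap in every gene shown, and Cldn2 is split between 3 mice under 0.1 FPKM and 5 mice at 96.0 FPKM or more.

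The treated and control groups overlapped in all 24 tested genes, whereas 3.33% of all tested genes had groups that did not overlap. None of the 24 (0) passed the threshold that the study set, an unadjusted p below 0.05 together with a change of 1.5-fold or more, which 231 genes passed in all, a share of 1.52%. An unadjusted p under 0.05 in limma's test was reached by 0 of the 24 and by 4.62% of all tested genes. After Benjamini-Hochberg adjustment over all 15150 genes, 0 of the 24 had an adjusted p under 0.05, as had 0% of all genes, and their adjusted p-values from limma were 0.918 or more. The smallest unadjusted p among them in limma was 0.105, of Ocln, and the smallest in a two-sided exact permutation test was 0.143, of Cldn15, where 4 mice against 4 allow no p below 0.0286. In 16 of the 24 genes (66.7%) the estimate was above 0, close to the 67.1% of all tested genes. Their median log2 fold change was 0.17, beside 0.09 over all genes. Under the common median ratio, 14 of 24 estimates were above 0 with a median of 0.06, and without rFGF4 mouse 1 it was 12 of 24 with a median of -0.01.

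A p that misses the threshold does not show that the groups were alike. The 95% intervals of the fold change, from limma on log2(FPKM + 1), included no change in all 24 genes. For 18 genes the interval lay within a 2-fold difference in either direction, and for 7 within 1.5-fold. The median SD within groups was 0.380 on the log2 scale for the 24 genes and 0.275 for all tested genes. The remaining 6 genes, Cldn2, Cldn3, Cldn1, Cldn4 and Cldn7 among them, had intervals reaching beyond a 2-fold difference.

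**Figure D2:**
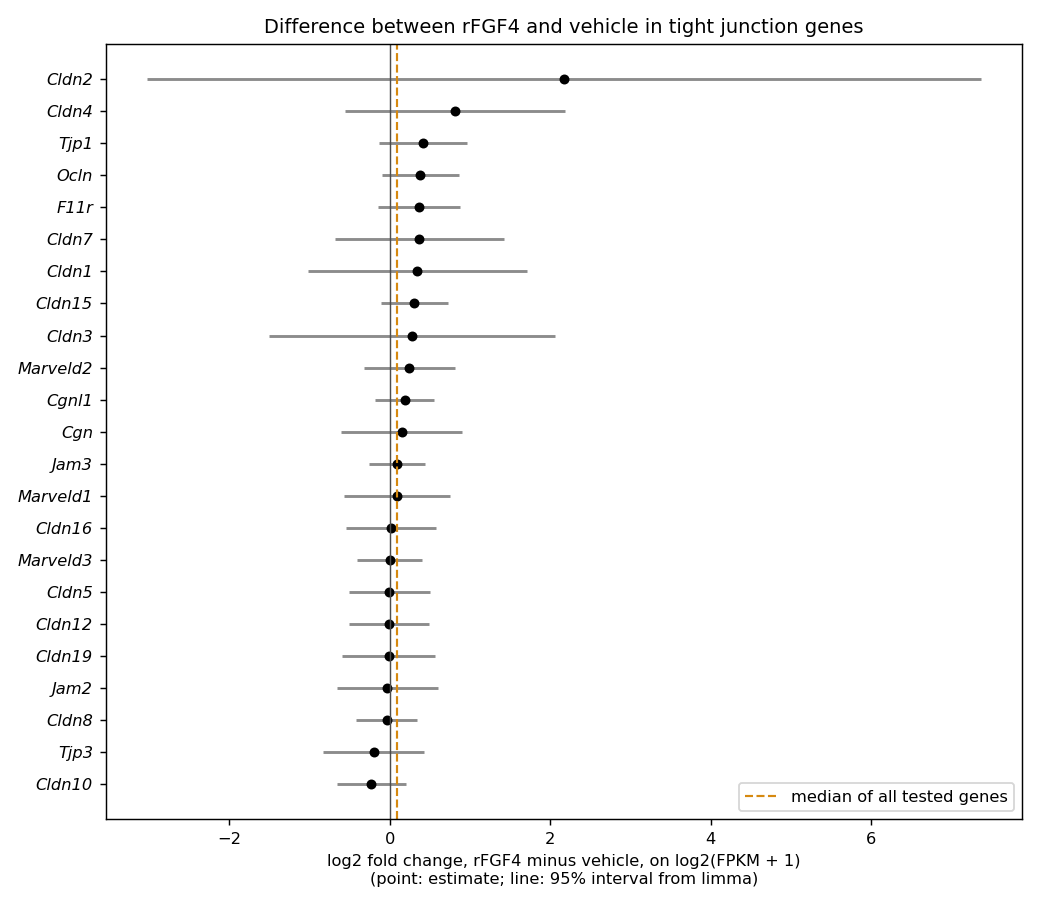
Log2 fold change of 23 tested tight junction genes, rFGF4-treated minus vehicle-treated mice, on the scale log2(FPKM + 1), with the 95% interval from limma as a line. All 23 intervals cross 0, that of Cldn2 is the widest, and the dashed line marks the median of all tested genes, 0.09.

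In what follows, values are in the order of mice 1, 2, 3 and 5 for rFGF4 and of mice 2, 3, 4 and 5 for vehicle. In whole kidney, fewer cells of a type and less RNA per cell cannot be told apart.

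Cldn2 forms the pore for sodium and water of the proximal tubule and the thin descending limb. It measured 138, 0.00371, 227 and 143 FPKM in rFGF4-treated mice and 0.0134, 107, 0.0453 and 96.0 FPKM in vehicle-treated mice. It was thus the most abundant claudin in 5 mice and close to 0 in the other 3, which were rFGF4 mouse 2 and vehicle mice 2 and 4, so that both groups held mice of both kinds. Its log2 fold change was 2.17 with a standard error (SE) of 2.27, an adjusted p of 0.925 in limma and a p of 0.229 in the exact permutation test. With 1 mouse left out it ran from 1.06, without vehicle mouse 2, to 4.01, without rFGF4 mouse 2. Without rFGF4 mouse 1 it was 1.64. Among the 5 mice at 96.0 FPKM or more, the mean was 169 FPKM in 3 rFGF4-treated mice and 102 FPKM in 2 vehicle-treated mice, a description of mice that were set apart by their own values.

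The split in Cldn2 was rare in these libraries. Of the 1329 genes that reached 50 FPKM in at least 1 mouse, 64 were under 0.1 FPKM in at least 1 other mouse, and 56 of the 64 were immunoglobulin genes. Cldn2 was the 1 gene at 50 FPKM or more in those 5 mice and under 0.1 FPKM in those 3. This count was made after its values were seen. Of 5 genes beside it on chromosome X, none was split in the same way. Rnf128, an E3 ubiquitin ligase, lay between 18.6 and 26.6 FPKM, Tbc1d8b between 1.54 and 2.18, Morc4 between 0.839 and 1.57 and Rbm41 between 0.128 and 0.385 FPKM, while Ripply1 was listed at 0 in rFGF4 mouse 5 and reached 0.647 FPKM in rFGF4 mouse 3. Slc34a1, a marker of the same proximal tubule, measured 136, 513, 699.7 and 718 FPKM in rFGF4-treated mice and 697, 494, 824 and 483 FPKM in vehicle-treated mice, and it was at 513 FPKM or more in each of the 3 mice in which Cldn2 was near 0. Cldn2 lies on chromosome X at 139800828 to 139811386 on GRCm38, and no exon of another annotated gene overlaps its exons. The table holds no reads, so absent RNA cannot be told apart here from transcripts missed in assembly or merging, and the cause of the 3 low values was not tested.

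**Figure D3:**
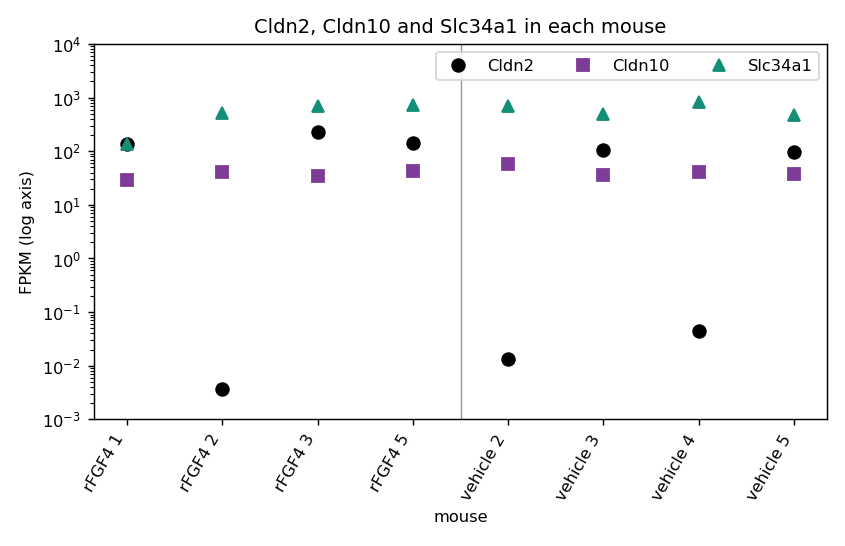
FPKM (log axis) of Cldn2, Cldn10 and the proximal tubule marker Slc34a1 in each of the 8 mice, with the vertical line between rFGF4-treated and vehicle-treated mice. Cldn2 lies between 96.0 and 227 FPKM in 5 mice and under 0.1 FPKM in 3, while Cldn10 lies between 29.4 and 58.9 FPKM in all of them.

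Cldn10 is made as an anion-selective form in the proximal tubule and a cation-selective form in the thick ascending limb, and a value per gene does not separate them. It measured 29.4, 40.8, 34.1 and 43.2 FPKM in rFGF4-treated mice and 58.9, 36.7, 41.7 and 38.1 FPKM in vehicle-treated mice. The lowest mouse was rFGF4 mouse 1 and the highest vehicle mouse 2, with the others between them in both groups. Its log2 fold change of -0.23 (SE 0.19) was the most negative of the 24 tested genes and had a p of 0.247 in limma. Without vehicle mouse 2 it was -0.086, less negative than that of Tjp3. The 8 proximal tubule markers summed to between 629 and 2062 FPKM in rFGF4-treated mice, lowest in mouse 1, and to between 1244 and 2154 FPKM in vehicle-treated mice. Of these markers 2 of 8 had an estimate above 0 (median log2 fold change -0.14), beside 67.1% of all tested genes.

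Cldn16 and Cldn19 form the cation pore of the thick ascending limb through which calcium and magnesium are reclaimed, and inherited loss of either wastes both ions. Cldn16 was at 9.89, 9.99, 5.45 and 6.43 FPKM in rFGF4-treated mice and at 7.67, 9.11, 4.98 and 9.45 FPKM in vehicle-treated mice. The corresponding levels of Cldn19 were 10.2, 8.16, 5.89 and 10.3 FPKM with rFGF4 and 13.6, 7.95, 5.97 and 8.04 FPKM with vehicle. Neither gene separated the groups, with log2 fold changes of 0.02 (SE 0.25) and -0.01 (SE 0.25). The ratio of Cldn16 to Cldn19 in a mouse ran from 0.626 to 1.22 with rFGF4 and from 0.564 to 1.18 with vehicle, with a p of 0.943 in an exact permutation test of its log2. An antisense gene, Gm12927, overlaps exonic bases of Cldn19. Thick ascending limb markers were 1 of 4 above 0 (median log2 fold change -0.34), and Slc12a1, the sodium-potassium-chloride transporter of that segment, measured 70.3, 155, 111 and 215 FPKM with rFGF4 and 309.9, 114, 177 and 143 FPKM with vehicle. Umod, which encodes uromodulin and was the most abundant of the 4, measured 839, 1115, 1213 and 1029 FPKM with rFGF4 and 829, 1033, 708 and 654 FPKM with vehicle. The 4 summed to between 967 and 1466 FPKM with rFGF4 and to between 909 and 1336 FPKM with vehicle, so the list's sum and its median estimate pointed in different directions.

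Cldn3, Cldn4, Cldn7 and Cldn8 belong to the distal nephron and the collecting duct, where Cldn4 and Cldn8 together let chloride pass. Cldn4 measured 64.9, 32.9, 17.2 and 9.92 FPKM in rFGF4-treated mice and 9.31, 15.8, 7.69 and 29.8 FPKM in vehicle-treated mice. Its highest mice were rFGF4 mice 1 and 2 and vehicle mouse 5, and the other 5 mice lay between 7.69 and 17.2 FPKM. The log2 fold change was 0.81 (SE 0.60, 95% interval -0.56 to 2.18), with a p of 0.209 in limma and of 0.229 in the exact permutation test.

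Cldn3 measured 59.0, 10.4, 5.35 and 5.88 FPKM with rFGF4 and 7.56, 8.82, 4.61 and 28.4 FPKM with vehicle. The mean was 20.1 ± 26.0 FPKM (SD, n = 4) in the former and 12.3 ± 10.8 FPKM (SD, n = 4) in the latter, yet the medians were 8.12 and 8.19 FPKM. A single mouse of each group, rFGF4 mouse 1 and vehicle mouse 5, held the high values. Cldn7 had the same 3 mice at the top as Cldn4, with 27.1, 19.1, 8.50 and 8.63 FPKM in rFGF4-treated mice and 7.02, 13.3, 6.61 and 20.5 FPKM in vehicle-treated mice, and its log2 fold change was 0.37 (SE 0.46).

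Cldn1 seals epithelia such as the skin and is found in the kidney in the parietal cells of Bowman's capsule. Its levels were 28.1, 6.60, 4.98 and 3.62 FPKM in rFGF4-treated mice and 5.21, 3.76, 4.47 and 13.6 FPKM in vehicle-treated mice. Again rFGF4 mouse 1 was highest and vehicle mouse 5 next, with the other 6 mice between 3.62 and 6.60 FPKM. Its log2 fold change was 0.34 (SE 0.60), with a p of 0.580 in limma.

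Cldn8 showed none of this. It measured 14.9, 16.3, 14.0 and 15.6 FPKM in rFGF4-treated mice and 18.5, 19.1, 14.5 and 11.5 FPKM in vehicle-treated mice, and vehicle mouse 5 was its lowest mouse. The ratio of Cldn4 to Cldn8 was 4.35 in rFGF4 mouse 1 and 2.58 in vehicle mouse 5, and between 0.503 and 2.01 in the other 6 mice. That of Cldn3 to Cldn8 was 3.95 in rFGF4 mouse 1, 2.46 in vehicle mouse 5 and between 0.319 and 0.635 elsewhere. Exact permutation tests of the log2 ratios between the groups gave p-values of 0.314 for Cldn4 and 0.629 for Cldn3. The 6 markers of collecting duct principal cells summed to 219, 367, 226 and 364 FPKM with rFGF4 and to 394, 339, 264 and 263 FPKM with vehicle, and rFGF4 mouse 1 had the lowest sum. Of these markers 0 of 6 had an estimate above 0 (median log2 fold change -0.22), beside 67.1% of all tested genes.

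Set against the median of the 6 mice other than these, rFGF4 mouse 1 held 8.78 times as much Cldn3, 5.95 times as much Cldn1, 5.05 times as much Cldn4 and 3.17 times as much Cldn7. Vehicle mouse 5 held 4.22, 2.87, 2.32 and 2.39 times as much of the same genes. The summed FPKM of the 4 genes was 179, 69.0, 36.0 and 28.0 in rFGF4-treated mice and 29.1, 41.7, 23.4 and 92.3 in vehicle-treated mice. Cldn3 and Cldn4 lie 39.3 kb apart on chromosome 5, whereas Cldn1, on chromosome 16, has Cldn16 as its nearest claudin at 91.3 kb, and Cldn16 was at 9.89 FPKM in rFGF4 mouse 1 and 9.45 FPKM in vehicle mouse 5, each within 1.5-fold of the median of the other 6 mice.

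The 2 mice highest for Cldn1 and Cldn3, rFGF4 mouse 1 and vehicle mouse 5, were also those with the highest values of macrophage genes. Beside the claudins, the summed FPKM of 5 markers of injured tubule (Havcr1, Lcn2, Krt20, Vcam1 and Sox9) was 798, 209.8, 74.6 and 22.4 in rFGF4-treated mice and 4.24, 143, 15.0 and 232 in vehicle-treated mice. Havcr1, the kidney injury molecule of the proximal tubule, measured 279.6, 59.8, 42.2 and 0.675 FPKM with rFGF4 and 0.0888, 15.4, 0.555 and 41.7 FPKM with vehicle. All 5 of these markers had an estimate above 0 (median log2 fold change 1.19), and 0 of 5 were past the study's threshold. The 6 macrophage markers summed to 498, 213, 68.8 and 38.9 FPKM with rFGF4 and 29.0, 115, 29.4 and 534 FPKM with vehicle, with 6 of 6 above 0, a median log2 fold change of 0.51 and again 0 past the threshold. Markers of fibroblasts and mural cells, 5 genes, summed to 117, 70.8, 40.2 and 30.8 FPKM with rFGF4 and 31.2, 66.3, 22.1 and 158 FPKM with vehicle, again highest in vehicle mouse 5 and rFGF4 mouse 1. Markers of urothelium, which also makes these claudins, summed over 5 genes to 43.2, 46.8, 0.650 and 15.4 FPKM in rFGF4-treated mice and 32.0, 23.5, 5.75 and 48.1 FPKM in vehicle-treated mice. The 3 highest sums were those of vehicle mouse 5 and rFGF4 mice 2 and 1, the mice highest for Cldn4 and Cldn7. In these 3 mice the keratin Krt5 made up most of the sum, at 38.4, 42.2 and 44.8 FPKM in rFGF4 mouse 1, rFGF4 mouse 2 and vehicle mouse 5, while 3 of the 4 uroplakins of the list were highest in vehicle mouse 2. Lymphocyte markers, 6 genes, summed to 2654, 666, 69.2 and 625 FPKM with rFGF4 and 58.3, 1419, 23.3 and 22401 FPKM with vehicle, highest in vehicle mouse 5 and rFGF4 mouse 1. In rFGF4 mouse 1 the sums of red blood cell markers, 120.0 FPKM over 4 genes, and of distal convoluted tubule markers, 29.8 FPKM over 3 genes, were the lowest of the 8 mice. Estimates above 0 were 0 of 4 and 0 of 3 in these 2 lists. No defining marker of these lists was near 0 in all mice. The part of these cells or states in the claudin values was not tested.

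**Figure D4:**
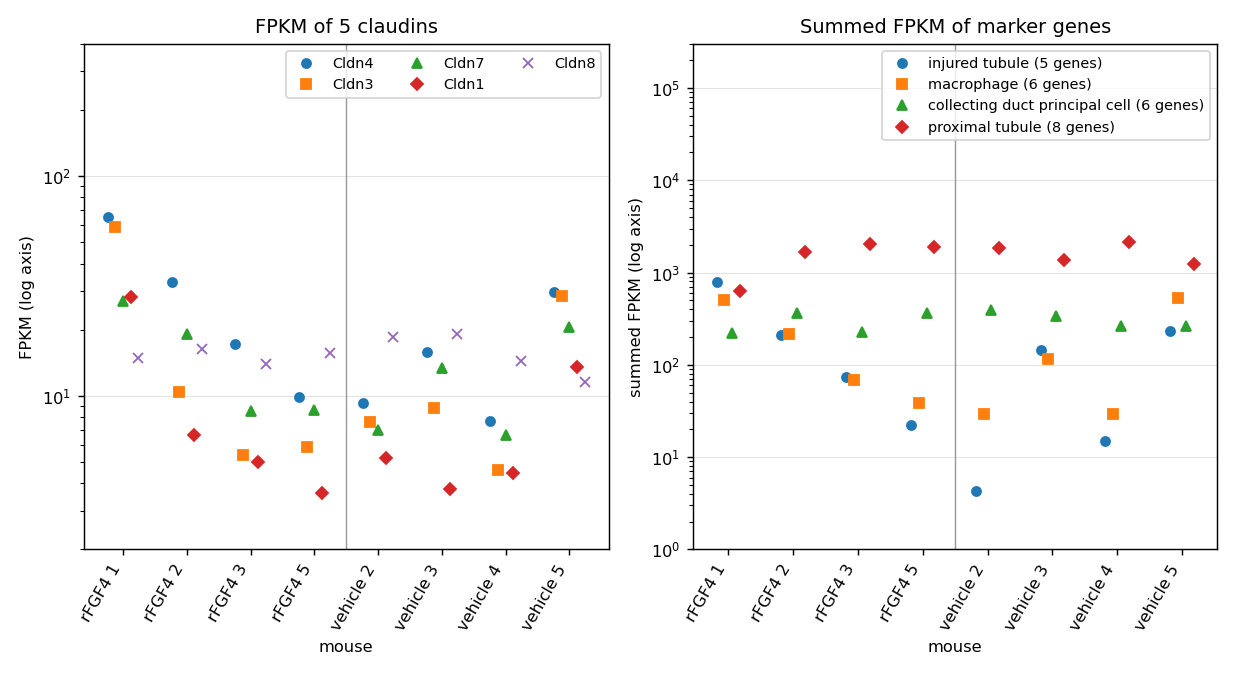
FPKM of Cldn1, Cldn3, Cldn4, Cldn7 and Cldn8 in each mouse (left) and the summed FPKM of the markers of 4 cell types or states (right), both on log axes, with a vertical line between rFGF4-treated and vehicle-treated mice and points of a mouse set apart sideways for legibility. rFGF4 mouse 1 and vehicle mouse 5 are highest for Cldn1 and Cldn3 and for the macrophage sum, while Cldn8 stays between 11.5 and 19.1 FPKM.

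Without rFGF4 mouse 1 and vehicle mouse 5, an alternative chosen after the values were seen, the log2 fold changes were 0.72 for Cldn4, 0.36 for Cldn7, 0.13 for Cldn1 and 0.02 for Cldn3. None of the 24 genes (0) passed the study's threshold in those 6 mice, while 273 genes did in all. Without rFGF4 mouse 1 alone the estimates of Cldn3 and Cldn1 turned to -0.45 and -0.23, while that of Cldn4 was 0.36 and that of Cldn7 was 0.066.

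The 3 other tested claudins had group means of at most 10.9 FPKM. Cldn12, which lacks the usual anchor for scaffold proteins and takes part in calcium transport, measured 9.59, 10.7, 10.2 and 11.4 FPKM with rFGF4 and 12.4, 10.0, 14.8 and 6.52 FPKM with vehicle, with a log2 fold change of -0.01 (SE 0.22). Cldn5, the claudin of endothelium that podocytes also make, measured 7.29, 5.70, 5.50 and 4.26 FPKM with rFGF4 and 3.78, 6.87, 5.02 and 7.48 FPKM with vehicle, a log2 fold change of -0.00 (SE 0.22). Endothelial markers had 0 of 7 estimates above 0, with a median of -0.22, and podocyte markers 5 of 5, with a median of 0.30, where 67.1% of all tested genes lay above 0. Of the podocyte markers 1 of 5 passed the study's threshold, beside 1.52% of all tested genes. It was Synpo, an actin-binding protein of podocyte foot processes, with an unadjusted p of 0.0195 in limma, and of 0.0540 without rFGF4 mouse 2, 0.0531 without rFGF4 mouse 5 and 0.0542 without vehicle mouse 3. Cldn15, best known as a sodium pore of the intestine, measured 8.60, 7.04, 5.78 and 8.34 FPKM in rFGF4-treated mice and 5.98, 4.77, 4.83 and 7.87 FPKM in vehicle-treated mice. For this gene the log2 fold change was 0.31 (SE 0.18) with a p of 0.129 in limma, and 0.24 without rFGF4 mouse 1, and 2 of 4 treated mice lay above every control mouse.

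Occludin, the founding MARVEL protein of the tight junction, had the smallest p of all 24 genes. Ocln measured 8.11, 4.25, 5.47 and 4.07 FPKM in rFGF4-treated mice and 4.34, 4.40, 3.74 and 3.01 FPKM in vehicle-treated mice. Mice 1 and 3 of the treated group lay above every control mouse, and the other 2 lay among them. The log2 fold change was 0.38 (SE 0.21, 95% interval -0.10 to 0.86), with a p of 0.105 and an adjusted p of 0.918 in limma and a p of 0.171 in the exact permutation test. Without rFGF4 mouse 1 the log2 fold change was 0.20, and without both that mouse and vehicle mouse 5 it was 0.11.

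Marveld2, the tricellulin that closes the corners where 3 cells meet, is the neighbour of Ocln on chromosome 13 at a distance of 43.2 kb. It measured 11.4, 6.86, 4.93 and 4.82 FPKM with rFGF4 and 5.47, 5.78, 4.42 and 6.16 FPKM with vehicle, for a log2 fold change of 0.24 (SE 0.25). The highest mouse was rFGF4 mouse 1, followed by rFGF4 mouse 2, and the other 6 overlapped, and without rFGF4 mouse 1 the log2 fold change was 0.011. Marveld3, a further strand protein, gave 5.88, 4.61, 4.77 and 3.45 and 4.52, 6.13, 3.93 and 4.13 FPKM with a log2 fold change of -0.00 (SE 0.18), and both group means were 4.68 FPKM. Marveld1, which shares the MARVEL domain, gave 13.0, 7.71, 6.73 and 7.72 FPKM with rFGF4 and 5.72, 7.97, 6.16 and 13.8 FPKM with vehicle, with rFGF4 mouse 1 and vehicle mouse 5 highest, and a log2 fold change of 0.09 (SE 0.29).

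The junctional adhesion molecules are immunoglobulin-like proteins that guide leukocytes and cell polarity at the junction. F11r, the epithelial member, had the highest mean over all 8 mice after Cldn2, although in vehicle-treated mice the means of Cldn10 and Cgnl1 were higher. It measured 76.0, 57.0, 46.9 and 40.4 FPKM in rFGF4-treated mice and 37.7, 41.2, 34.1 and 55.0 FPKM in vehicle-treated mice. Treated mice 1 and 2 lay above every control mouse, and vehicle mouse 5 above the other controls. The log2 fold change was 0.37 (SE 0.22) with a p of 0.138 in limma, and 0.20 without rFGF4 mouse 1. Jam3 measured 6.30, 5.54, 7.07 and 5.16 FPKM with rFGF4 and 5.34, 5.96, 4.34 and 6.72 FPKM with vehicle, a log2 fold change of 0.10 (SE 0.15), and an antisense gene, Gm48796, overlaps its exons. Jam2, mainly of endothelium, was the least expressed tested gene, at 2.29, 2.23, 1.93 and 0.957 FPKM with rFGF4 and 1.02, 2.74, 1.25 and 2.94 FPKM with vehicle, with a log2 fold change of -0.03 (SE 0.28).

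The zonula occludens scaffolds bind the claudin tails and carry them to actin. Tjp1 measured 10.3, 7.11, 6.27 and 4.96 FPKM in rFGF4-treated mice and 4.41, 4.01, 4.44 and 7.50 FPKM in vehicle-treated mice. All 4 treated mice lay above vehicle mice 2, 3 and 4, and vehicle mouse 5 lay above 3 of the treated mice. The log2 fold change was 0.42 (SE 0.24, 95% interval -0.13 to 0.97) with a p of 0.119 and an adjusted p of 0.918 in limma. Leaving out vehicle mouse 5 raised it to 0.59 with an unadjusted p of 0.0285 and an adjusted p of 0.620 in limma, past the study's threshold, which made Tjp1 the 1 gene of the 24 to pass when any single mouse was left out. Leaving out rFGF4 mouse 1 instead lowered it to 0.25. Without both of those mice it was 0.42 with an unadjusted p of 0.0237 in limma.

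Tjp3, a scaffold restricted to epithelia, gave 8.20, 4.69, 3.19 and 4.30 FPKM with rFGF4 and 4.52, 6.51, 4.34 and 8.19 FPKM with vehicle, and its estimate was below 0, at -0.20 (SE 0.27), and -0.42 without rFGF4 mouse 1.

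Cingulin and paracingulin join the scaffolds to actomyosin. Cgn measured 11.8, 5.01, 3.79 and 3.68 FPKM in rFGF4-treated mice and 5.13, 4.69, 3.46 and 6.35 FPKM in vehicle-treated mice, with rFGF4 mouse 1 highest and vehicle mouse 5 next, and a log2 fold change of 0.15 (SE 0.33) that turned to -0.18 without rFGF4 mouse 1. Its relative Cgnl1 ran the other way between mice, at 40.4, 51.6, 51.0 and 55.5 FPKM with rFGF4 and 54.1, 38.9, 45.3 and 36.3 FPKM with vehicle, with vehicle mouse 5 lowest and rFGF4 mouse 1 lowest of its group. The ratio of Cgnl1 to Cgn was 3.43 in rFGF4 mouse 1 and 5.71 in vehicle mouse 5, and between 8.29 and 15.1 in the other 6 mice. An exact permutation test of its log2 between the groups gave a p of 0.943, and the log2 fold change of Cgnl1 was 0.19 (SE 0.16).

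Other genes of cell junctions were read from 4 lists that hold none of the 35. In all, 60 of their 63 genes were tested, 48 had an estimate above 0 and 12 below. An unadjusted p under 0.05 in limma was reached by 3 of the 60, beside 4.62% of all tested genes, and the study's threshold by 1 of the 60, beside 1.52%. Scaffolds of the junction and of cell polarity had 23 of 29 estimates above 0 (median log2 fold change 0.09), and 0 past the study's threshold. Other membrane proteins of the junction had 9 of 12 above 0, with a median of 0.15 and 1 past the threshold, on the lower side. Genes of adherens junctions, such as the cadherins and catenins, had 8 of 8 above 0 with a median of 0.29 and 0 past it. In each of these 8 but Cdh16, rFGF4 mouse 1 was the highest mouse. Transcription factors of epithelial junctions had 8 of 11 above 0 with a median of 0.10 and 0 past it. The background over all tested genes was 67.1% above 0 with a median of 0.09. Without rFGF4 mouse 1 that share was 52.2%, and the counts of the 4 lists without that mouse are not given.

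The 1 gene of these lists past the study's threshold was Ildr2, an angulin that helps to place tricellulin at the corners between cells. It measured 6.53, 2.12, 0.907 and 1.27 FPKM in rFGF4-treated mice and 6.04, 5.98, 7.41 and 6.89 FPKM in vehicle-treated mice. In the treated group, mice 2, 3 and 5 were at 2.12 FPKM or below, under every control mouse, and rFGF4 mouse 1 lay inside the range of the controls. The log2 fold change was -1.25 (SE 0.39), with a p of 0.0120 and an adjusted p of 0.918 in limma and a p of 0.0857 in the exact permutation test. Without rFGF4 mouse 1 it was -1.67 with an adjusted p of 0.521 in limma.

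Of the genes short of the threshold, the smallest p-values on the higher side were those of Tfcp2l1 and Pard6b. Tfcp2l1, a grainyhead-like factor of the distal nephron and collecting duct, measured 38.9, 44.7, 47.3 and 36.6 FPKM with rFGF4 and 24.4, 35.0, 34.1 and 28.3 FPKM with vehicle, so the groups did not overlap. Its log2 fold change was 0.45 (SE 0.15), a fold below the limit of 1.5, with a p of 0.0160 in limma and of 0.0286 in the exact permutation test, the smallest it can give. Pard6b, a polarity protein of the PAR complex, gave 21.2, 19.5, 17.3 and 18.6 FPKM with rFGF4 and 15.9, 11.9, 17.2 and 14.3 FPKM with vehicle, again without overlap, and a log2 fold change of 0.36 (SE 0.13) with a p of 0.0280 in limma. Under the common median ratio the unadjusted p-values in limma were 0.0970 for Tfcp2l1 and 0.119 for Pard6b. For Pard6b, whose highest mouse was rFGF4 mouse 1, the log2 fold change without that mouse was 0.31 with an unadjusted p of 0.0575 in limma. Its p in limma was 0.0622 without rFGF4 mouse 2, 0.0705 without vehicle mouse 3, 0.0596 without vehicle mouse 5, 0.0631 with array weights and 0.153 without mitochondrial transcripts. Without mitochondrial transcripts the p of Tfcp2l1 in limma was 0.0800. On the lower side, the scaffold Magi1 had a log2 fold change of -0.26 (SE 0.14) and the kinase Wnk1, which controls salt transport in the distal nephron, one of -0.29 (SE 0.16), with p-values of 0.0933 and 0.106 in limma.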

How the data were processed

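Kidney poly(A) RNA of 4 rFGF4-treated and 4 vehicle-treated mice was compared, grouped by the sample labels. The authors mapped paired-end reads, assembled transcripts with StringTie, merged them with gffcompare and deposited FPKM per gene. The submitters' processing notes name Bowtie 0.12.2, HISAT2 2.0, StringTie 1.3.0 and the build mm8, without their roles. A value of 0.0001 or less is described as 0 here, while the fits and means used it unchanged. The table also holds the fold changes, p-values and q-values of the authors' own edgeR comparison, which were not used, and it holds no counts, so that comparison could not be repeated with edgeR.

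Genes with at least 0.5 FPKM in 4 or more libraries were put on the scale log2(FPKM + 1), and the groups were compared in R 4.3.3 by limma 3.58.1 (moderated test with a trend, Benjamini-Hochberg adjustment over 15150 genes). Fold changes are on that scale, which understates those of low genes. The study's limits, p under 0.05 and a fold change of 1.5, were applied to this fit. Exact permutation tests were two-sided (scipy 1.17.1, Python 3.11.15), and figures used matplotlib 3.10.9. The limma p-values set the difference between groups against the spread between these mice, moderated across genes. Those of the permutation test rank the difference among all regroupings of the mice. The procedure was tested on simulated data. Alternatives were another pseudocount, filters, scalings, array weights, a block for mouse number, each mouse left out and, added after seeing the data, 2 mice left out together.

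Every tested tight junction gene but 1, which counts in the totals and whose values are not reported here, is named with its value in each mouse; of other junction genes, those past the study's threshold and the 2 with the smallest p beyond it in each direction are named. Genes and lists were chosen with earlier results of these data known. Positions and exon overlaps were read from the GENCODE M21 annotation (GRCm38), which holds 55141 of the 55401 identifiers, and promoters from RefSeq on GRCm38.p6, matched by symbol. Protein, histology and cell culture data of the study were not analysed here.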

Additional observations from a re-analysis of the deposited data

Results flagged for a closer look

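In 2 of the 58 groups of 4 mice examined, the highest or lowest mouse lay farther from the others than Dixon's 95% limit for 4 values, on the scale log2(FPKM + 1). Chance alone gives about 1 in 20 such groups, or 2.9 of the 58. Tjp1 in vehicle mouse 5 had a gap to the next mouse of 0.845 of the range of its group, with 7.50 FPKM beside 4.01 to 4.44 FPKM in the other 3 mice. Cldn2 in rFGF4 mouse 2 had a gap of 0.909 of the range, with 0.00371 FPKM beside 138 to 227 FPKM in the other 3 mice. On the FPKM scale the same gaps were 0.877 of the range for Tjp1, past the limit, and 0.608 for Cldn2, short of it. In both genes the cause was not tested.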

How the results depend on the processing

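Over all genes, 231 passed the study's threshold, 348 with a pseudocount of 0.1 FPKM and 490 with array weights. With a mouse left out the count ran from 187 to 575, highest without rFGF4 mouse 5, and was 432 without vehicle mouse 5. At an adjusted p under 0.05 there were 0 genes, 1 without the filter and 0 to 1 with a mouse left out (1 without vehicle mouse 2, 4 or 5). Among the tight junction genes the count past the threshold was 0, and 0 to 1 with a mouse left out, the 1 being Tjp1 without vehicle mouse 5. An unadjusted p under 0.05 in limma was reached by Cldn24 without the filter, by Tjp1 and F11r with array weights, and by Tjp1 and Cldn15 without vehicle mouse 5. Of 408 alternative values of the 24 log2 fold changes, 49 changed sign, in 14 genes, and the cause was not tested. The mouse numbers are not described as pairs. Mice of the same number deviated from their group means with correlations of -0.23, -0.16 and -0.39 across genes. These cannot settle whether mice were paired, since 1 mouse that stands apart shifts the deviations of its whole group. With the replicate block 262 genes and 0 tight junction genes passed, and the estimates that changed sign were Cldn3 -0.77, Cldn7 -0.14, Cldn1 -0.35, Marveld2 -0.071, Cgn -0.31, Cldn12 0.18, Cldn16 -0.27, Jam3 -0.023 and Marveld1 -0.20. Only the numbers 2, 3 and 5 occur in both groups. The block therefore takes rFGF4 mouse 1 and vehicle mouse 4 out of the estimate, and a sign change under it does not come from the block alone. Under the block the estimate of Cldn2 was 0.54 and that of Cldn4 0.11, and the p of Pard6b in limma was 0.0636. Scaling to a common median ratio gave Cldn16 -0.083 and Marveld1 -0.0052. Leaving out mitochondrial transcripts gave Cldn16 -0.10, Jam3 -0.011 and Marveld1 -0.018. Array weights gave Jam2 0.20 and Cldn5 0.10. The ratio of group means gave Marveld3 0.00026. Without rFGF4 mouse 1 and vehicle mouse 5 together, Jam2 was 0.043, Cgn -0.069 and Cldn5 0.0061. Leaving out single mice, the log2 fold changes that crossed 0 ranged from -0.45 to 0.75 for Cldn3, -0.23 to 0.70 for Cldn1, -0.17 to 0.055 for Cldn8, -0.20 to 0.14 for Jam2, -0.16 to 0.19 for Cldn19, -0.18 to 0.30 for Cgn, -0.10 to 0.11 for Marveld3, -0.21 to 0.15 for Cldn12, -0.16 to 0.12 for Cldn5, -0.16 to 0.16 for Cldn16, -0.00082 to 0.18 for Jam3 and -0.093 to 0.33 for Marveld1. The table holds no counts, so counting error could not be given.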
